A study of Homo sapiens with 16 samples.

Results

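The Toll-like receptors TLR1, TLR2, TLR3, TLR4, TLR5 and TLR6, the NOD receptors NOD1 and NOD2, the adaptor MYD88 and the kinase IRAK2 were taken as a list of 10 genes, out of 19970 protein-coding genes on chromosomes 1 to 22 and X, to ask which pathogen sensors and adaptors carried p65 in colon cancer cells. p65, the RELA subunit of NFκB, had been mapped by ChIP-Seq, in which chromatin fragments bound by an antibody are sequenced. The cells were the colorectal adenocarcinoma lines HT29 and SW480, labelled as stable transfectants of an empty vector (mock) or of estrogen receptor beta (ERβ), giving 4 ChIP groups of 3 libraries with 1 input library each. Cells of all 4 groups had received 30 ng/ml TNFα for 30 min, were crosslinked with DSG and then formaldehyde, and had no estradiol added, so there is no untreated group to compare with. The ERβ inputs come from another series of libraries, the labels list the antibody and TNFα on the inputs too, and whether each line is 1 clone is not stated in the sources used here.

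Toll-like receptors on the cell surface or in endosomes recognise parts of microbes and, except for TLR3, pass the signal to MYD88, which gathers kinases of the IRAK family. NOD1 and NOD2 recognise fragments of bacterial cell wall in the cytosol. Both routes end in the release of NFκB into the nucleus, the same step that TNFα triggers through its own receptor. In the colon these sensors stand at the border between epithelium and gut bacteria, and variants of NOD2 are known for their link to Crohn's disease.

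The signal is tag density which the authors scaled to a total of 10 M tags (M, 1e6) in each library, averaged here in bins of 200 bp. For every gene, bins from 50 kb upstream to 10 kb downstream were read on GRCh38, and a bin was listed in a ChIP group when its mean over the 3 libraries was at least 2 and at least 4 times the input made for that group. The tracks hold no counts and do not show the depth of a library, so no counting interval is given. The paper states a range of mapped reads per sample, which was not used here. Listed bins with at most 1 unlisted bin between them were joined to a site, read at its bin of highest mean over the 12 ChIP libraries.

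The windows of 4 members held bins past both limits. IRAK2 held listed bins in all 4 ChIP groups. The window of NOD2 did too, but in both HT29 groups and in SW480 mock cells they all lay at the start of the next gene, CYLD, and only SW480 ERβ cells had listed bins within NOD2 itself. TLR1 and TLR6, neighbours on chromosome 4 that share 1 site, held listed bins in HT29 mock and SW480 ERβ cells. TLR2, TLR3, TLR4, TLR5, NOD1 and MYD88 held none, though bins of TLR2, TLR5, NOD1 and MYD88 came near the limits. The highest signal, a mean of 10.9 ± 4.34 in HT29 mock, 7.76 ± 4.03 in HT29 ERβ, 14.5 ± 1.39 in SW480 mock and 16.2 ± 5.66 in SW480 ERβ cells (SD, n = 3), lay in an intron of IRAK2. No bin at a member's main promoter was listed, though a bin listed in SW480 ERβ cells lay at another promoter of NOD2.

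The 4 members in HT29 mock cells are 40% of the list, where 21.5% of all protein-coding genes had a listed bin by the same rule. In HT29 ERβ cells 2 members (20%) had one, beside 15.7% of all genes. In SW480 mock cells the count was again 2 (20%), beside 7.57%, and in SW480 ERβ cells 4 (40%), beside 31.6%. Over any group, 4 members (40%) stood beside 35.7% of all genes, and 2 members with listed bins in each of the 4 groups stood beside 5.82%. Windows of the members had a median length of 93883 bp, against 87476 bp over all genes. In a list of 10 genes, 1 gene moves such a share by 10 points, and the shares are a description with no test.

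**Figure D1:**
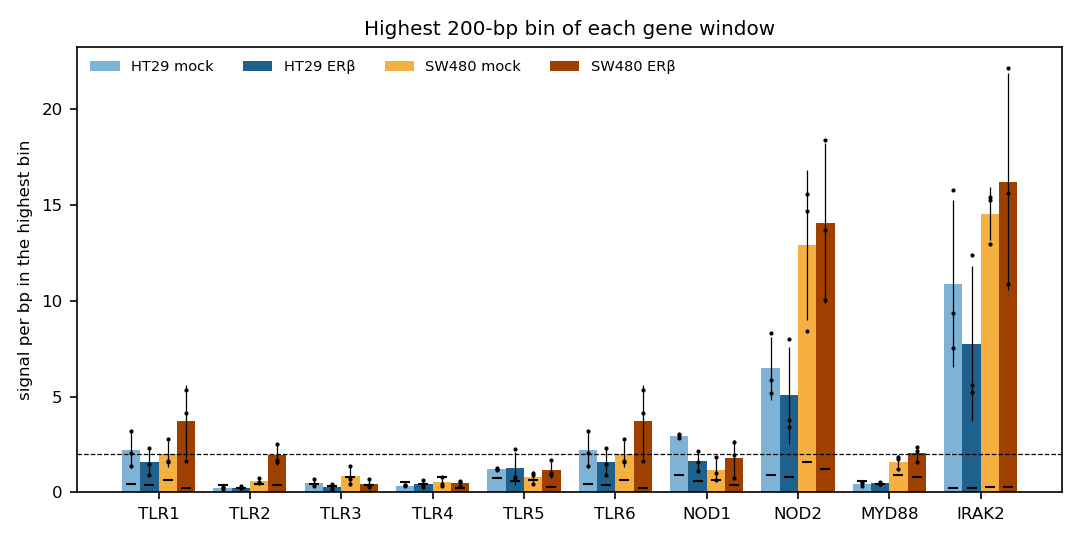
Signal per bp (tag density per 10 M tags, y axis) in the bin of highest mean of each of the 10 members (x axis). Bars are group means with SD (n = 3), points are ChIP libraries, short lines are inputs, and the dashed line is the limit of 2. IRAK2, at group means of 7.76 to 16.2, and the NOD2 window, at 5.06 to 14.0, stand above the other members. The NOD2 bin lies at the start of CYLD, 48.3 kb from the NOD2 start. TLR4 stays at group means of 0.351 to 0.523.

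The windows held 10 distinct sites, of which 5 lay in IRAK2's window, 4 in that of NOD2 and 1 in the window shared by TLR1 and TLR6. The sequences of 7 of them are shown, since they are the DNA from which the signal of these genes was read. Each is the + strand of GRCh38, printed 5′ to 3′ in lower case, with capitals for matches on either strand to the κB consensus, the sequence class NFκB dimers prefer, or to the AP-1 consensus TGACTCA. The NOD2 sites at 3.5 and 4.5 kb, which touch untranslated exons, are shown by runs of 30 bases around a κB match.
IRAK2 +27.4 kb, chr3:10192201-10192400, intron, the strongest site of the list, with a κB and an AP-1 match: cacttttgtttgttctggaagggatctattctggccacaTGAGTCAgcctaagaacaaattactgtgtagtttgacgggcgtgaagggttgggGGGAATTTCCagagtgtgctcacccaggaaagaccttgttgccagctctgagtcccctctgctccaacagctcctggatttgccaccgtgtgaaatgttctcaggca
IRAK2 +34.4 kb, chr3:10199201-10199400, intron, with a κB match: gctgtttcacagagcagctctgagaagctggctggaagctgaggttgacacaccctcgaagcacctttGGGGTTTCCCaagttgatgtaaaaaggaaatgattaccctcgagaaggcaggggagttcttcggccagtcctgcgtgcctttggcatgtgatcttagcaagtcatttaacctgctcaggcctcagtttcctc
NOD2 +3.5 kb, chr16:50697104-50697133, with overlapping κB matches: ttttcctttGGGAATTTCCCttgaaggtgg
NOD2 +4.5 kb, chr16:50698075-50698104, with a κB match: gagtgtctgGGAATGTCCCtgatttataaa
NOD2 +26.1 kb, chr16:50719601-50719800, intron, with an AP-1 and no κB match: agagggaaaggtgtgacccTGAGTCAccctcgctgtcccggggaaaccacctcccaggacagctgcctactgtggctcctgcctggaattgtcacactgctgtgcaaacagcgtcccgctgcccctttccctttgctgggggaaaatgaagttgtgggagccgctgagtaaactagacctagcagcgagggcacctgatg
CYLD start in the window of NOD2, chr16:50741801-50742000, with a κB match: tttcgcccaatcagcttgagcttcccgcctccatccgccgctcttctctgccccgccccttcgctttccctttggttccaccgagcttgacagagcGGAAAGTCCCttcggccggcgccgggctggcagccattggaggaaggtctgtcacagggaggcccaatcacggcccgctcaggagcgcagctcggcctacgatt
TLR1 and TLR6, chr4:38904401-38904600, intron of FAM114A1, with neither match: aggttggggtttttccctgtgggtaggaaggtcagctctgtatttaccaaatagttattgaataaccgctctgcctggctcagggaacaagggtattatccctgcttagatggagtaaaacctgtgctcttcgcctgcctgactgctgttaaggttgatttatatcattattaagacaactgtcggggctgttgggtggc

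Of the 10 peak bins, 8 (80%) held a κB match, against 33.2% of the 19580 bins tested below and 2.91% of all 14555311 bins without an unknown base. An AP-1 match was in 2 (20%), against 9.11% of tested bins and 2.99% of all bins. These are unlike sets, since peak bins are the highest of a site and tested bins are not limited to these. Of all listed bins, 5 of 11 held a κB match in the NOD2 window and 5 of 9 in that of IRAK2. At the site of TLR1 and TLR6 it was 0 of 2. A match is a description of the letters and not of binding. NOD2's window was rich in κB matches, with 42 of its 497 bins (8.45%), where the other windows had 1.99% to 4.97%. In the RefSeq promoter table on GRCh38 (250 bases before to 50 after a start), 10 promoters of 9 members were found, TLR1 not among them. None held a κB or AP-1 match, while 9.42% of all 34961 promoters held a κB and 4.92% an AP-1 match. A NOD2 promoter among them, chr16:50696698-50696997, overlapped a bin listed in SW480 ERβ cells (chr16:50696801-50697000, mean 3.58, 4.41 times input).

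Differences between groups were tested by limma on log2(signal + 1), in 1 fit of the 12 ChIP libraries over all bins with a mean of at least 1 and at least 2 times the mean input, with Benjamini-Hochberg adjustment over the 19580 bins and a threshold of 0.05. Fold changes are on that scale, which understates the change of low bins. All 10 peak bins of the member sites were tested. The median difference over all tested bins was -0.13 for ERβ minus mock in HT29, 0.48 for the same contrast in SW480, -0.32 for SW480 minus HT29 in mock cells, 0.33 for that contrast in ERβ cells, and 0.62 for the difference between the ERβ effects of SW480 and HT29, and the values of single sites are to be read against these medians. The contrasts share libraries with each other. Mean log2(signal + 1) over tested bins was 1.84 and 1.70 in replicate 1 of HT29 mock and HT29 ERβ against 1.16 to 1.32 in the other HT29 libraries, and 1.39 in replicate 1 of SW480 ERβ against 1.85 and 1.79 in replicates 2 and 3. The share of these library levels in the differences was not tested.

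Of the surface receptors, TLR2, TLR4 and TLR5 had no listed bin. TLR2 (chr4:153684070-153706260, + strand), which senses bacterial lipopeptides as a pair with TLR1 or TLR6, came closest. Its highest bin contained its main start, where SW480 ERβ libraries had 1.57, 2.55 and 1.70, with a mean of 1.94 ± 0.532 (SD, n = 3) at 4.85 times input, just under the limit of 2. SW480 mock libraries had 0.55, 0.736 and 0.515, and the 6 HT29 libraries lay between 0.16 and 0.33. The SW480 ERβ libraries thus stood above all others without overlap. The bin was too low for the main test, and since it reaches a lower limit through SW480 ERβ cells alone, no test of it is given.

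TLR4 (chr9:117704175-117724735, + strand), the receptor of lipopolysaccharide, had its highest bin at -103 bp from its start, with group means of 0.351, 0.463, 0.523 and 0.494 in HT29 mock, HT29 ERβ, SW480 mock and SW480 ERβ cells, at inputs of 0.55, 0.42, 0.79 and 0.23. TLR5 (chr1:223109404-223143248, - strand), the receptor of flagellin, had its highest mean over all libraries at 9.3 kb inside the gene, where HT29 mock libraries had 1.26, 1.21 and 1.15, HT29 ERβ libraries 2.24, 0.788 and 0.745, SW480 mock libraries 0.44, 0.933 and 1.03 and SW480 ERβ libraries 1.02, 1.67 and 0.887. There SW480 mock libraries lay below HT29 mock libraries, the other groups overlapped, and no group mean passed 1.26. A TLR5 bin at -47.3 kb was higher in SW480 ERβ cells, with libraries at 1.38, 2.09 and 1.70 and a mean of 1.72 at 6.90 times input, still under the limit of 2, while SW480 mock libraries had 0.60, 1.02 and 1.00 and HT29 libraries 0.18 to 0.663. At that bin the SW480 ERβ libraries stood above all others. The bin was picked because that group came near the limits, so this order is a description and no test is given.

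TLR1 (chr4:38790677-38856817) and TLR6 (chr4:38822897-38856817), both on the - strand, share their single site. It lay at -47.7 kb from the start of TLR6 and at -99.7 kb from the main start of TLR1, inside an intron of FAM114A1 and 36.7 kb from the start of that gene, which is the nearest start. The site falls in the TLR1 window because windows run from the outer end of the annotated gene. For TLR1 that end is 38856817, as for TLR6, while its main start is 38804791. In HT29 the mock libraries had 3.23, 2.08 and 1.37 (mean 2.23, 5.02 times input) and HT29 ERβ libraries 2.30, 1.49 and 0.925 (mean 1.57, 3.93 times input). SW480 mock libraries had 1.65, 1.57 and 2.78 (mean 2.00, 3.04 times input), and SW480 ERβ libraries 1.63, 4.16 and 5.34 (mean 3.71, 16.1 times input). All 4 groups overlapped, with replicate 1 of SW480 ERβ cells within the range of both mock groups.

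At this TLR1 and TLR6 site the difference of ERβ minus mock was -0.32 ± 0.33 in HT29 (SE; limma, adjusted p = 1) and 0.58 ± 0.33 in SW480 (limma, adjusted p = 0.18). With replicate number as a block, the SW480 difference passed the test (limma, adjusted p = 0.0129), as did the difference between the ERβ effects (limma, adjusted p = 0.00809, against 0.177 without the block). With median scaling these differences were 0.05 (limma, adjusted p = 0.926) and 0.24 (limma, adjusted p = 0.763). SW480 ERβ cells were higher than HT29 ERβ cells by 0.81 ± 0.33 (limma, adjusted p = 0.0364). That limma call was lost without replicate 2 or 3 of HT29 ERβ (adjusted p 0.0831 and 0.201) or of SW480 ERβ (0.148 and 0.27). It was also lost without replicate 2 of SW480 mock (limma, adjusted p = 0.0506). The site was listed through HT29 mock and SW480 ERβ cells, the groups that raise the difference between the ERβ effects. The values that chose the site thus enter these contrasts, and their p-values support no difference.

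TLR3 (chr4:186068911-186088073, + strand), the endosomal receptor of double-stranded RNA, had no listed bin. Its highest bin, at -0.9 kb, held 0.422, 0.709 and 1.39 in SW480 mock libraries, with a mean of 0.84 at an input of 0.813. In the other 3 groups single libraries lay between 0.16 and 0.724. No group at TLR3 stood apart from the others.

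NOD1 (chr7:30424527-30478784, - strand), which senses diaminopimelic acid of bacterial cell walls, had no listed bin, but 2 neighbouring bins came close to the limits in HT29 mock cells. Its highest bin lay at -24.5 kb, in an intron of GGCT and 1.5 kb from the start of that gene. HT29 mock libraries had 3.04, 2.86 and 2.99, with a mean of 2.96 ± 0.095 (SD, n = 3), but only 3.33 times input, and the next bin had a mean of 1.99 at 4.24 times input. HT29 ERβ libraries had 2.15, 1.57 and 1.13, SW480 mock libraries 0.999, 0.672 and 1.83, and SW480 ERβ libraries 0.775, 1.97 and 2.62. HT29 mock libraries were thus above every other library. SW480 mock cells were lower than HT29 mock cells (log2 difference -0.91 ± 0.31, limma, adjusted p = 0.0141), and the difference of ERβ minus mock in HT29 was -0.61 ± 0.31 (limma, adjusted p = 1). The ERβ effects of the lines differed by 0.95 (limma, adjusted p = 0.13, with the replicate block 0.00466, and 0.29 with adjusted p = 0.695 under median scaling). Of all tested bins, 26.3% were called lower in SW480 mock cells, and the block called 47.3% higher for the ERβ effects. The bin was read as the highest of its window, where HT29 mock cells had the highest mean. The values that picked it thus enter these contrasts, and the p-values support no difference.

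NOD2 (chr16:50693588-50733077, + strand), the sensor of muramyl dipeptide, had 4 sites, of which 2 lay near the starts of its transcripts. The bin at 3.5 kb contained the start of a second NOD2 transcript at position 50697139. Between the last of its overlapping κB matches and that start lay 15 bases. The 30-base run printed above holds these matches but ends before that start. HT29 mock libraries had 2.04, 0.977 and 2.13 (mean 1.71 ± 0.64) and HT29 ERβ libraries 1.71, 1.71 and 1.70 (mean 1.71). SW480 mock libraries had 1.76, 2.47 and 1.83 (mean 2.02 ± 0.388, 2.15 times input) and SW480 ERβ libraries 5.65, 10.1 and 8.18 (mean 7.97 ± 2.22, 14.6 times input; SD, n = 3). All SW480 ERβ libraries were above the 9 others.

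At this NOD2 +3.5 kb site the difference of SW480 ERβ minus SW480 mock was 1.55 ± 0.35 (SE), or 1.01 when libraries were scaled to the same median. In HT29 the same difference was 0.02 ± 0.35 (limma, adjusted p = 1). The mock lines differed by 0.18 (limma, adjusted p = 0.729, or 0.52 with adjusted p = 0.0436 under median scaling). SW480 ERβ minus HT29 ERβ was 1.70 ± 0.35, or 0.99 divided by the window's input, and the ERβ effects of the lines were apart by 1.52 ± 0.50, or 0.86 with median scaling. The site was listed through SW480 ERβ cells alone, so for contrasts with that group the values are a description and no p is given, here and at the other sites listed through it alone.

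The neighbouring NOD2 site at 4.5 kb had HT29 mock libraries at 1.14, 0.42 and 0.946, HT29 ERβ libraries at 1.08, 0.22 and 0.43, SW480 mock libraries at 0.80, 1.07 and 0.826 and SW480 ERβ libraries at 3.74, 2.96 and 2.77. The SW480 ERβ libraries, with a mean of 3.16 ± 0.512 (SD, n = 3) at 8.77 times input, again did not overlap any other group. Their difference from SW480 mock was 1.13 ± 0.27, or 0.59 with median scaling, and it was -0.24 for ERβ minus mock in HT29. The ERβ effects of the lines were apart by 1.36 ± 0.38, or 0.70 with median scaling. This site too was listed through SW480 ERβ cells alone.

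**Figure D2:**
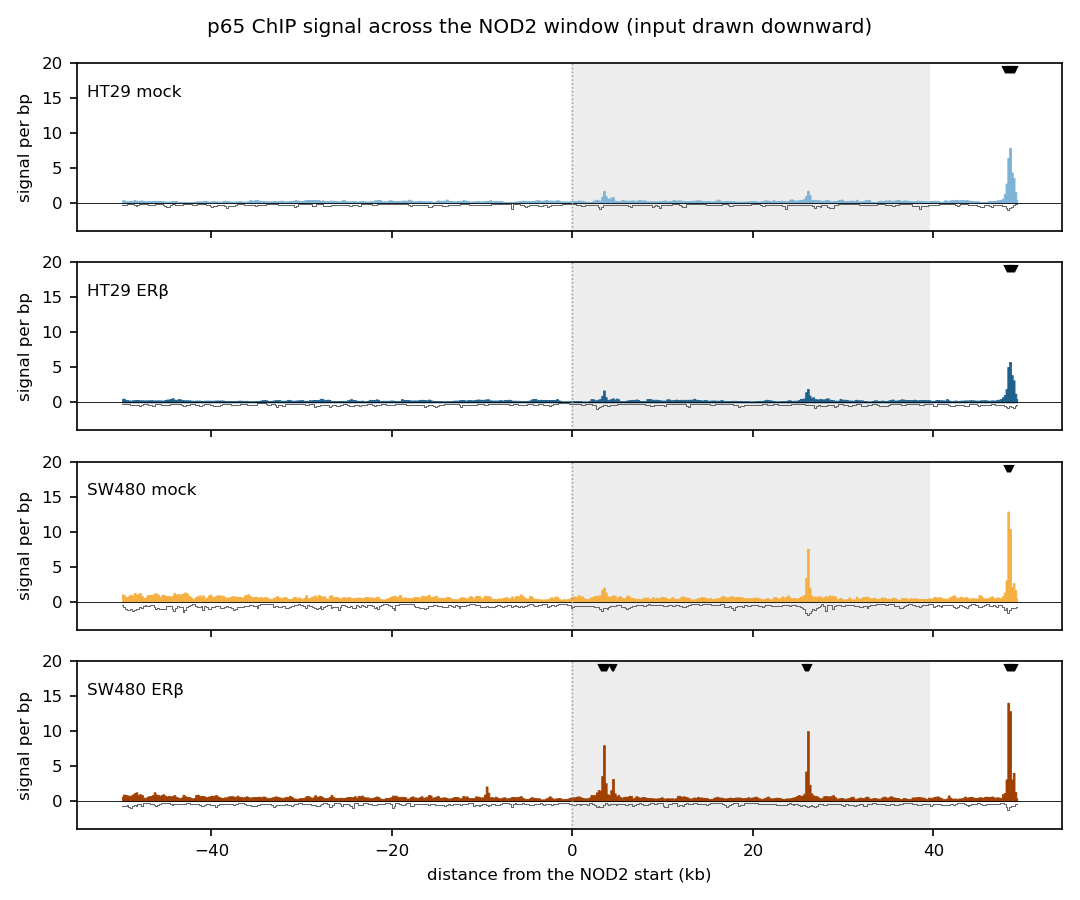
Mean signal per bp of each ChIP group, with its input drawn downward (tag density per 10 M tags, y axis), along the window of NOD2 in bins of 200 bp, against distance from the NOD2 start in kb (x axis). Grey marks the gene and triangles listed bins. The bins at 3.5 kb and 4.5 kb rise in SW480 ERβ cells (means 7.97 and 3.16), the bin at 26.1 kb in both SW480 groups, and the bins around 48.3 kb, at the CYLD start, in all 4 groups.

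The third NOD2 site, in an intron at 26.1 kb, separated the lines by signal. By signal over input this order held in ERβ cells alone. HT29 mock libraries had 2.11, 1.85 and 1.26 and HT29 ERβ libraries 2.55, 1.25 and 1.96, with means of 1.74 and 1.92. SW480 mock libraries had 8.0, 9.43 and 5.26 (mean 7.57 ± 2.12) and SW480 ERβ libraries 5.54, 12.2 and 12.3 (mean 9.99 ± 3.86; SD, n = 3). Every SW480 library was above every HT29 library. The bin was listed in SW480 ERβ cells alone (12.2 times input). The SW480 mock mean was 3.90 times its input of 1.94, just under the limit of 4. HT29 means were under the limit of 2, but 7.26 times input in mock and 5.49 times in ERβ cells. Over input, the order of the lines was thus reversed in mock cells and kept in ERβ cells.

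SW480 was higher than HT29 at this 26.1 kb site by 1.62 ± 0.38 in mock cells (limma, adjusted p = 0.000251) and the difference was 1.86 ± 0.38 in ERβ cells, the group through which the site was listed. Input over the NOD2 window stood at 1.76 times the genome mean in SW480 and at 0.981 times in HT29. The SW480 value pools a mock input with a mean of 0.635 and an ERβ input with a mean of 0.472. Divided by the input of the window, the differences were 0.92 (limma, adjusted p = 0.036) and 1.14. ERβ minus mock in SW480 was 0.32 ± 0.38.

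The fourth site of the NOD2 window, at 48.3 kb, was the start of CYLD, which encodes a deubiquitinase that restrains NFκB, and lay at -186 bp from that start. All listed bins of the NOD2 window in both HT29 groups and in SW480 mock cells belonged to it. Its HT29 mock libraries had 8.33, 5.89 and 5.19, HT29 ERβ libraries 7.99, 3.39 and 3.79, SW480 mock libraries 15.6, 14.7 and 8.40 and SW480 ERβ libraries 10.0, 18.4 and 13.7. Every SW480 library was above every HT29 library. The lines differed by 1.35 ± 0.39 in ERβ cells (limma, adjusted p = 0.00245) and by 0.87 ± 0.39 in mock cells (limma, adjusted p = 0.0706). Divided by the window's input, these became 0.59 (limma, adjusted p = 0.229) and 0.12 (limma, adjusted p = 0.848). With median scaling both passed, at 1.04 (limma, adjusted p = 6.84e-05) and 1.22 (limma, adjusted p = 7.54e-06).

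MYD88 (chr3:38138552-38143024, + strand), the adaptor of every Toll-like receptor of the list except TLR3, had no listed bin. Its bin of highest mean lay at -1.6 kb, in the first exon of ACAA1, with HT29 mock libraries at 0.50, 0.33 and 0.534, HT29 ERβ libraries at 0.46, 0.44 and 0.524, SW480 mock libraries at 1.21, 1.76 and 1.85 and SW480 ERβ libraries at 2.14, 2.37 and 1.58. The SW480 ERβ mean of 2.03 was only 2.53 times input. At that exon SW480 libraries were above HT29 libraries without overlap, and input over the window was 1.24 times the genome mean in SW480 and 0.90 times in HT29. Closer to the limits were bins inside MYD88 at 3.6 and 3.8 kb, with means of 2.20 and 2.01 in SW480 ERβ cells at 3.50 and 3.20 times input. At 3.6 kb the libraries had 1.40, 2.95 and 2.26 in SW480 ERβ, 0.766, 1.35 and 0.982 in SW480 mock and 0.345 to 0.781 in HT29 cells. The SW480 ERβ libraries stood above all others at 3.6 kb. Since the bin passed the limit of the test through SW480 ERβ cells, no test of it is given.

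IRAK2 (chr3:10164919-10243745, + strand), a member of the IRAK kinase family that joins the MYD88 complex and sustains NFκB signalling, had the strongest site of the list at 27.4 kb inside the gene. There HT29 mock libraries had 15.8, 7.54 and 9.34 (48.2 times input), HT29 ERβ libraries 12.4, 5.25 and 5.62 (35.3 times), SW480 mock libraries 15.4, 15.3 and 12.9 (50.1 times) and SW480 ERβ libraries 10.8, 22.1 and 15.6 (54.0 times). Each group overlapped at least 1 other, and HT29 ERβ replicates 2 and 3 were the lowest of all libraries. The bin printed above is one that holds a κB and an AP-1 match together.

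ERβ minus mock at the 27.4 kb site of IRAK2 was -0.47 ± 0.38 in HT29 (SE; limma, adjusted p = 1) and 0.10 ± 0.38 in SW480 (limma, adjusted p = 0.851). SW480 was higher than HT29 by 1.01 ± 0.38 in ERβ cells (limma, adjusted p = 0.023) and by 0.44 ± 0.38 in mock cells (limma, adjusted p = 0.387). The first of these calls was lost without replicate 2 or 3 of HT29 ERβ (0.133 and 0.108), without replicate 2 or 3 of SW480 ERβ (0.171 and 0.0824), and after division by the window's input (0.63, adjusted p = 0.181). The input over the IRAK2 window was 1.21 times the genome mean in SW480 and 0.903 times in HT29. Divided by the window's input, the difference in mock cells was 0.05 (limma, adjusted p = 0.93). With median scaling both line differences passed (0.70 with adjusted p = 0.00381, and 0.78 with adjusted p = 0.0016).

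**Figure D3:**
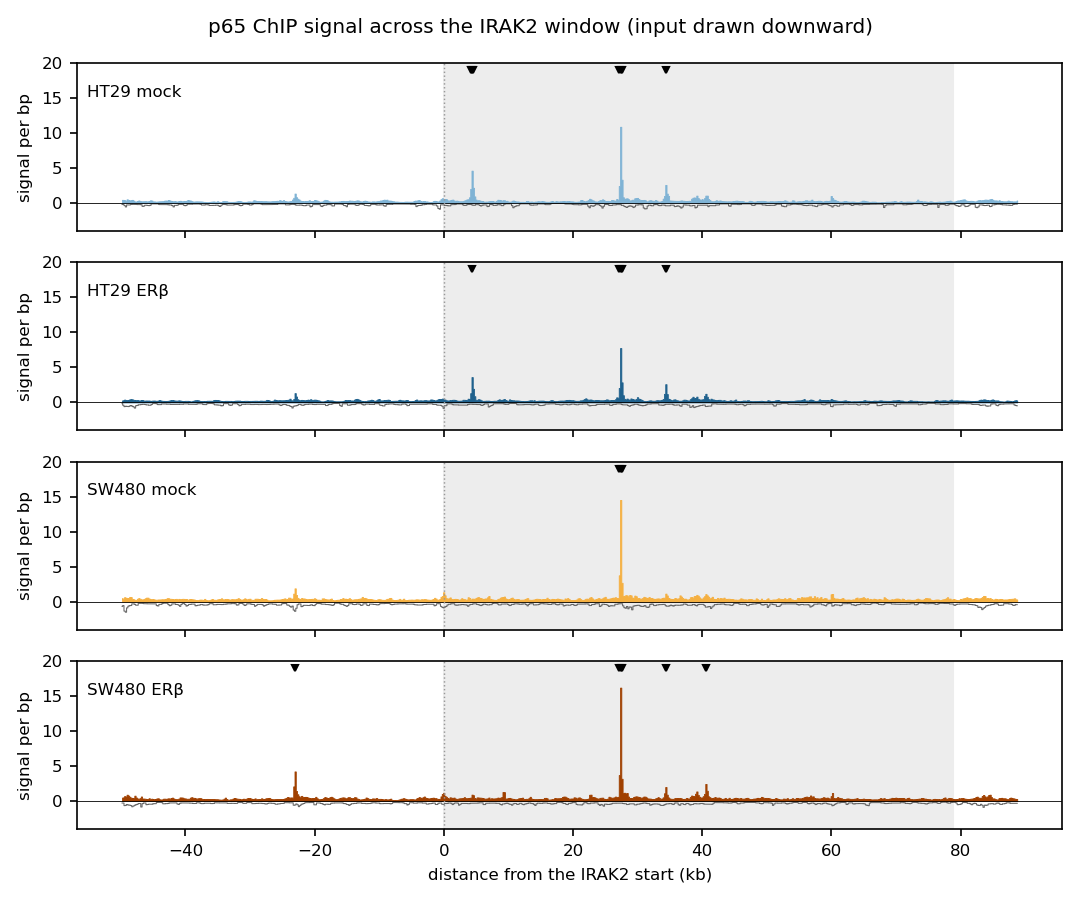
Mean signal per bp of each ChIP group, with its input drawn downward (tag density per 10 M tags, y axis), along the window of IRAK2 in bins of 200 bp, against distance from the IRAK2 start in kb (x axis). Grey marks the gene and triangles listed bins. The bin at 27.4 kb reaches 7.76 to 16.2 in all 4 groups, while the bin at 4.4 kb rises in HT29 alone (means 4.63 and 3.61, against 0.446 and 0.923 in SW480).

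The IRAK2 site at 4.4 kb was the one member site called higher in HT29 by the main fit. HT29 mock libraries had 7.92, 2.56 and 3.41 (17.6 times input) and HT29 ERβ libraries 4.81, 2.80 and 3.23 (13.5 times). SW480 mock libraries had 0.276, 0.39 and 0.673 (1.16 times input), and SW480 ERβ libraries 0.562, 0.797 and 1.41 (3.08 times). The lines did not overlap. SW480 minus HT29 was -1.85 ± 0.31 in mock cells and -1.26 ± 0.31 in ERβ cells, or -1.51 and -1.58 with median scaling. The site was listed through the HT29 groups alone, so these differences are a description and no p is given. The ERβ differences were -0.19 ± 0.31 in HT29 (adjusted p = 1) and 0.40 ± 0.31 in SW480 (adjusted p = 0.326).

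The other intronic sites of IRAK2 were weaker. At 34.4 kb, HT29 mock libraries had 3.07, 2.21 and 2.49, HT29 ERβ libraries 3.62, 1.86 and 2.31, SW480 mock libraries 0.994, 1.00 and 1.48 and SW480 ERβ libraries 1.52, 2.19 and 2.32. Here SW480 mock libraries lay below all others, and SW480 minus HT29 was -0.73 ± 0.32 in mock cells (limma, adjusted p = 0.0627) and -0.24 in ERβ cells (limma, adjusted p = 0.578). Divided by the window's input, the first of these passed (-0.98, limma, adjusted p = 0.00983), and with median scaling the second did (-0.56, limma, adjusted p = 0.0163). ERβ minus mock in SW480 was 0.48 ± 0.32 (limma, adjusted p = 0.252, with the replicate block 0.0384, and -0.06 with adjusted p = 0.903 under median scaling). The 34.4 kb site was listed in every group except SW480 mock. The values that chose it thus enter the contrasts with that group, and their p-values support no difference. At 40.6 kb all 9 libraries of the other groups lay between 0.918 and 1.35, and SW480 ERβ libraries had 1.60, 2.87 and 2.87, a difference from SW480 mock of 0.70 ± 0.28, or 0.17 with median scaling. This site was listed through SW480 ERβ cells alone.

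The site at -23.0 kb from the start of IRAK2 was the first exon of VHL, at 122 bp from the start of that gene, which encodes a subunit of the ubiquitin ligase for hypoxia-inducible factors. At this exon HT29 mock libraries had 1.71, 1.34 and 1.01, HT29 ERβ libraries 2.31, 0.90 and 0.759, SW480 mock libraries 1.75, 1.49 and 2.49 and SW480 ERβ libraries 3.30, 4.71 and 4.69. SW480 ERβ libraries were above all others. Their difference from SW480 mock was 0.85 ± 0.32, or 0.32 with median scaling, and SW480 ERβ minus HT29 ERβ was 1.22 ± 0.32. In HT29, ERβ minus mock was -0.07 ± 0.32 (limma, adjusted p = 1). The site was listed through SW480 ERβ cells alone.

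Just inside the limit for the mean were the IRAK2 bins at 2.01 (the site at 34.4 kb in SW480 ERβ cells), 2.02 (beside the site at 4.4 kb in HT29 mock cells) and 2.06 (beside the site at 27.4 kb in HT29 ERβ cells). Just outside were a NOD1 bin at 1.99 in HT29 mock cells, the TLR2 bin at 1.94 in SW480 ERβ cells and an IRAK2 bin at 1.94 in HT29 ERβ cells.

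Read over all 10 sites, ERβ minus mock in HT29 was called by limma at 0 sites in either direction, and at 0 with an unadjusted p under 0.05, with differences from -0.47 to 0.11 and a median of -0.13, equal to the median of all tested bins. Over all tested bins, limma called 0.00511% higher and 0% lower in HT29, and 296 bins had an unadjusted p under 0.05, so a missed call here does not show that the groups were alike. In SW480, 3 of the 10 sites were called higher in ERβ cells (the 2 first NOD2 sites and the VHL exon) and 0 lower, with a median of 0.53, beside 20.7% of all tested bins called higher and 0% lower. With median scaling, 955 bins were called higher and 380 lower, and of the member sites only NOD2 +3.5 kb. With the replicate block, 6 member sites were called higher, beside 54.4% of all tested bins. All 3 sites called in the main fit were listed through SW480 ERβ cells alone, as were 5 sites in all. The rule thus in part sets their direction and the count supports no difference.

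**Figure D4:**
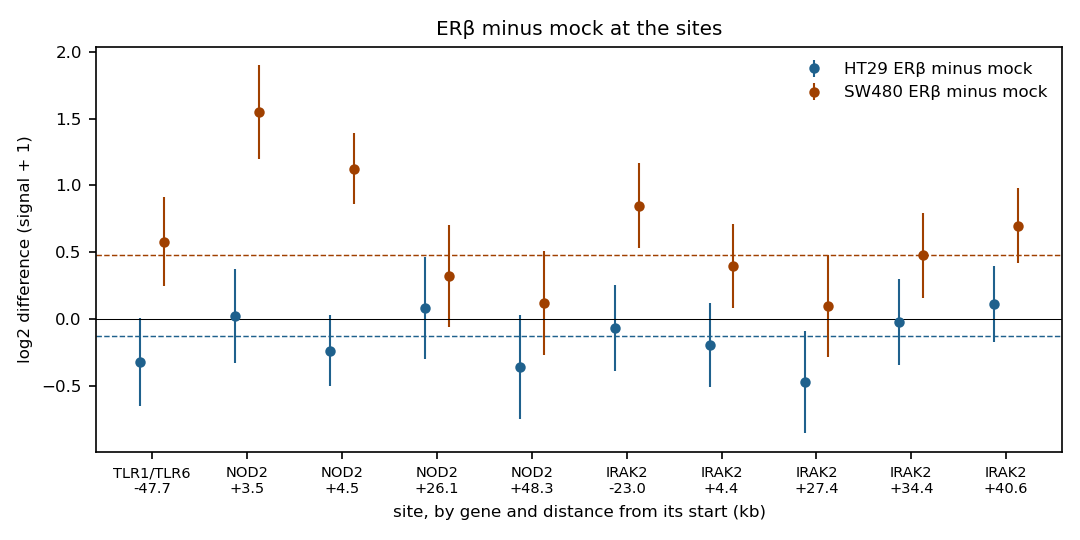
Difference of ERβ minus mock on the log2(signal + 1) scale with its standard error as bars (y axis) at the 10 member sites (x axis), for HT29 and SW480. Dashed lines are the medians of all tested bins (-0.13 and 0.48). HT29 values lie between -0.47 and 0.11, while SW480 values reach 1.55 and 1.13 at the first NOD2 sites and stay at 0.10 and 0.12 at the strongest IRAK2 site and the CYLD start.

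Between the lines, 1 member site was called higher in SW480 mock than in HT29 mock cells (NOD2 +26.1 kb) and 1 lower (IRAK2 +4.4 kb), the second of them a site listed through HT29 alone, with a median of 0.12, beside 6.92% of tested bins called higher and 26.3% lower. Under median scaling, 4422 bins were called higher and 3929 lower, and 5 member sites were called higher and 1 lower. Between the ERβ lines, 7 sites were higher in SW480 and 1 lower, with a median of 1.12, beside 30.8% and 10.2% of tested bins. With median scaling, 7 sites were higher and 2 lower, beside 26.4% and 25% of tested bins (5177 and 4892 bins). Of the 7 higher in the main fit, 4 lay in the window of NOD2, where SW480 had the higher input given above. Also, 4 (NOD2 at 3.5, 4.5 and 26.1 kb and the VHL exon) were listed through SW480 ERβ cells alone. The TLR1 and TLR6 site, also among the 7, was listed in SW480 ERβ and HT29 mock cells but not in HT29 ERβ cells. The rule thus in part fixes the direction here too. The difference between the ERβ effects was called at 2 sites, both in NOD2 and listed through SW480 ERβ cells alone, beside 7.82% of tested bins higher and 0% lower, and at 0 sites with median scaling, under which 195 bins were higher and 25 lower.

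**Figure D5:**
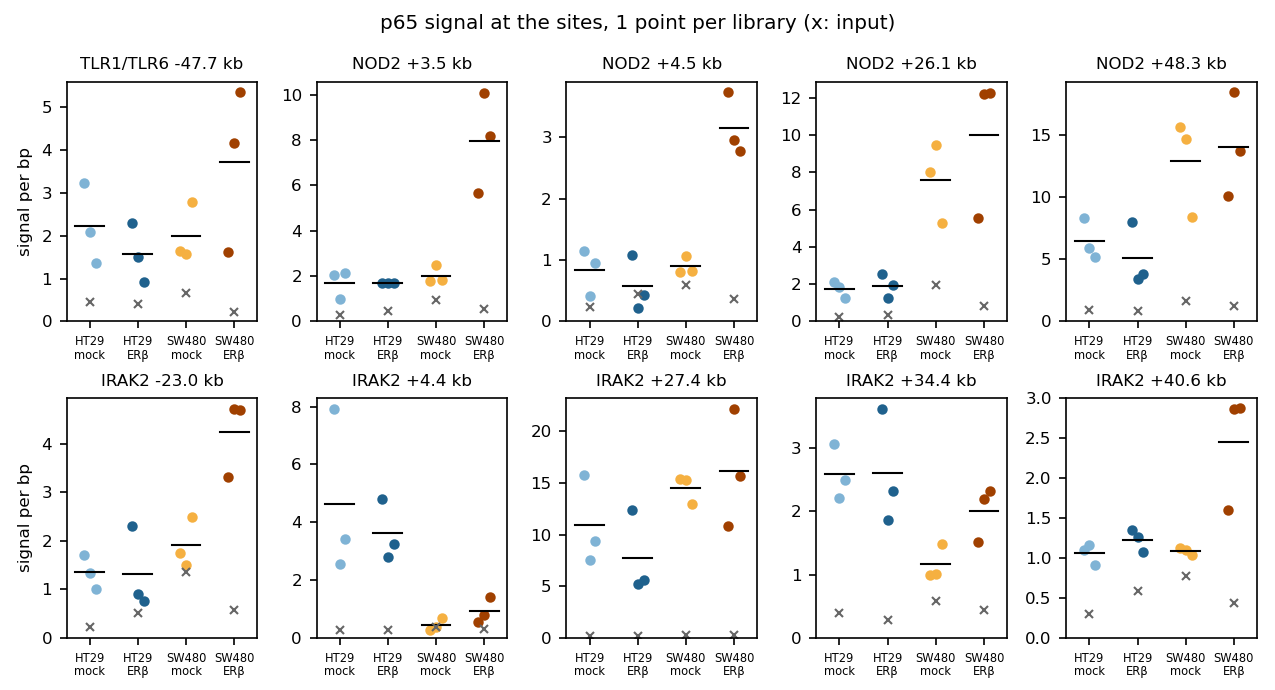
Signal per bp (tag density per 10 M tags, y axis from 0, with its own scale in each panel) at the 10 member sites, by group (x axis). Points are ChIP libraries, lines group means and crosses inputs. IRAK2 +27.4 kb and NOD2 +48.3 kb, the CYLD start, are at least 4 times input in all 4 groups, IRAK2 +4.4 kb is higher in HT29 than in SW480, and NOD2 +26.1 kb is higher in SW480.

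Over the promoters proper, from 1 kb before to 100 bp after each member's main start, mean signal per library lay between 0.103 and 1.12, and group means were 0.730 to 2.71 times input, the highest at TLR2 in SW480 ERβ cells. The sites nearest to a member's main start were thus the NOD2 bins at 3.5 kb and the IRAK2 bin at 4.4 kb. Of the 10 sites, 6 were nearest to a member's main start and 4 to that of another gene, namely FAM114A1, CYLD (2 sites) and VHL. ERβ status was taken from the labels and checked at ESR2, the gene of ERβ. Signal in coding exons was 1.08 to 1.37 times that in introns in HT29 mock and 4.31 to 8.02 times in HT29 ERβ ChIP libraries. It was 1.35 to 1.59 times in SW480 mock and 2.48 to 3.06 times in SW480 ERβ ChIP libraries. The single inputs stood closer together. They had 1.29 times in HT29 mock, 2.25 in HT29 ERβ, 1.51 in SW480 mock and 1.79 in SW480 ERβ cells.

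Of 23 other genes of the pathway, 8 had a listed bin in any group (34.8%, beside 35.7% of all genes), namely LBP, UNC93B1, TICAM1, SARM1, SIGIRR, IRAK3, RIPK2 and CARD9, and 15 had none. At their own promoters stood TICAM1, the adaptor that TLR3 uses in place of MYD88, with group means of 6.44, 5.81, 6.65 and 11.7 at -188 bp in HT29 mock, HT29 ERβ, SW480 mock and SW480 ERβ cells, and RIPK2, the kinase downstream of NOD1 and NOD2, with 5.84, 3.91, 3.42 and 4.99 at -316 bp. Both were listed in all 4 groups. The pathway genes had 13 sites, of which 11 were tested. ERβ minus mock was called at 0 of them in HT29, and at 3 higher and 0 lower in SW480 (20.7% and 0% of all tested bins), which were sites at -27.1 and -29.7 kb of SIGIRR, an inhibitor of Toll-like receptor signalling, and at -19.1 kb of IRAK3, the inhibitory IRAK kinase. All 3 are nearest to another gene, ANO9 or TMBIM4. SIGIRR -29.7 kb and IRAK3 -19.1 kb were listed in SW480 ERβ and not in SW480 mock cells, so the rule partly sets their direction. With median scaling 0 sites were called, while with the replicate block 8 were higher, beside 54.4% of all tested bins. In mock cells 0 were higher and 3 lower in SW480 than in HT29, beside 6.92% and 26.3% of all tested bins. Of these 3, 2 were listed through HT29 mock cells alone, and SIGIRR -29.7 kb in HT29 mock but not SW480 mock cells. In ERβ cells 3 were higher and 2 lower, beside 30.8% and 10.2%. The 2 lower sites were listed through HT29 mock cells alone. Of the higher sites, SARM1 -36.0 kb and IRAK3 -19.1 kb were listed in SW480 ERβ and not in HT29 ERβ cells. The rule thus partly sets direction in these line contrasts too. The ERβ effects differed at 1 site, beside 7.82%, which was IRAK3 -19.1 kb (1.51, limma, adjusted p = 0.0308). That call was lost with median scaling (0.85, limma, adjusted p = 0.171), and the block called 9 of the 11 sites, beside 47.3% of all tested bins. IRAK3 -19.1 kb was listed through HT29 mock and SW480 ERβ cells, the groups that raise this difference, so the call supports no difference.

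Among the promoter bins most like the IRAK2 +27.4 kb site over the 12 ChIP libraries, by Pearson's r on log2(signal + 1), were those of TNFAIP3 (r = 0.971), C16orf46 (r = 0.953) and PNRC1 (r = 0.950), out of 2246 genes compared. The libraries share their level over all bins, and 37 genes had r over 0.9, so these values are a description.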

How the data were processed

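The p65 ChIP-Seq libraries were 3 ChIP and 1 input for each of 4 groups (HT29 and SW480, mock and ERβ), grouped by their labels. The authors mapped single reads with STAR to GRCh38 and made tag directories with HOMER, as the submitters' processing notes and the methods name them, with versions not given in the sources used here. The deposited tracks hold this coverage signal, tag density scaled to 10 M tags per library. Their values are not counts and do not show depth, so tests on counts, which the study ran with edgeR, were not run. A library with more of its tags in peaks reads higher at every site under such scaling.

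Signal was averaged in 200-bp bins with Python 3.11.15 and numpy 2.4.6, and genes were taken from GENCODE release 44. Bins were compared with limma 3.58.1 in R 4.3.3 (mean-variance trend, group means, pseudocount 1), after the code had been tested on simulated data. All 10 genes were named, each at its strongest site or bin and at every site called in any of the 5 contrasts, and so were genes whose start was nearer to a site, pathway genes with a listed bin, the 5 promoters most like the strongest site, and ESR2. Some items under this rule are not reported here. The members and lists were chosen with earlier results of these data known.

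Replicate numbers were checked for pairing before the fits were compared. After removal of group means, mock and ERβ libraries sharing a number correlated at 0.479, 0.179 and 0.194 in HT29. In SW480 they correlated at 0.276, 0.118 and 0.179, so all were above 0.1. They were treated as pairs only in the alternative fit with the replicate block, and the main fit had no block. This pairing rests on the correlations alone, since the labels do not say what a number shared. In HT29, unlike numbers reached 0.205 (mock 2 with ERβ 3) and 0.135 (mock 3 with ERβ 2), so there only replicate 1 stood apart. The methods call the replicates biological without saying what was separate, and p-values measure only the spread between these libraries. Alternatives covered the limits for listing, the window, the input used, scaling, pseudocount, filters, the block and single libraries. The depth totals, peaks and edgeR results of the study and its expression arrays were not used here.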

Additional observations from a re-analysis of the deposited data

Results flagged for a closer look

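At the NOD2 +3.5 kb site the difference of ERβ minus mock was larger in SW480 than in HT29 by 1.52 on the log2(signal + 1) scale (SE 0.50), and was picked out because the interaction term of the fit over all bins passed its threshold there. In SW480 the 3 ERβ libraries were above the 3 mock libraries, while in HT29 the difference was 0.02. The interaction call at this site was lost in 9 of the 13 fits that left libraries out.

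At the NOD2 +4.5 kb site the ERβ differences of the lines were apart by 1.36 (SE 0.38), with 1.13 in SW480 and -0.24 in HT29, and were picked out in the same way. The 2 sites were listed through SW480 ERβ cells alone, and at 4.5 kb the other groups had means of 0.576 to 0.90, under the limit of 1 set for the mean of all libraries, so the values that chose the sites enter these differences and no p is given. The median of this contrast over all tested bins was 0.62, and with libraries scaled to a common median neither difference passed the threshold. At 4.5 kb the call was lost in 3 of the 13 fits that left libraries out.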

How the results depend on the processing

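The 15 called differences were refitted under 355 alternatives in all, of which 314 kept direction and call, 41 lost the call and 0 changed sign. Other filters, no trend, the block, the 2 groups alone and fits without a library outside a contrast leave its difference unchanged. The count of 0 sign changes was thus partly fixed in advance. Some of these calls were also at sites listed through the higher group alone. Members with a listed bin fell in HT29 mock cells from 4 to 2 at 6 times input and to 2 at a mean of 3, with a range of 2 to 5 when single libraries were left out (2 without replicate 1, when TLR1 and TLR6 were lost). With a window to 2 kb downstream, NOD2 was lost in HT29. There 4 became 3 in HT29 mock and 2 became 1 in HT29 ERβ cells. The HT29 ERβ count stayed at 2 to 2 without single libraries. In SW480 mock cells 2 became 4, with TLR1 and TLR6, at 3 times input, with bins moved by 100 bp and with the ERβ input, and 1 with the window to 2 kb downstream, and stayed at 2 to 2. In SW480 ERβ cells 4 became 7 at a mean of 1.5, and ranged from 4 to 7 (7 without replicate 1, when TLR2, NOD1 and MYD88 joined).

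Member sites called for ERβ minus mock in SW480 went from 3 to 1 with median scaling or quantile normalization and to 6 with the replicate block (which called 54.4% of all tested bins higher), and from 2 to 5 without single libraries (5 without SW480 ERβ replicate 1). In HT29 they were 0 to 0, and 0 with the block. Between mock lines 2 became 6 with median scaling or quantile normalization and 4 with no input condition on bins, no trend or the 2 groups alone, and ranged from 2 to 4 (4 without HT29 ERβ replicate 1). Between ERβ lines 8 ranged from 6 to 9. For the ERβ effects of the lines, 2 became 1 at a mean of 2, 4 with input subtracted, 0 with median scaling or quantile normalization and 4 with the block (47.3% of all tested bins higher), and ranged from 0 to 3 (0 without replicate 2 or 3 of HT29 ERβ or replicate 1 of SW480 mock). The block lies within a line, so it could not be used for contrasts between lines. The block changed no other call at a member site. The cause of these changes was not tested.

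With 3 libraries a group, 1 input each, no untreated cells and ERβ inputs of another series, the ERβ effect and differences between separately made cultures or inputs cannot be told apart. The scaled tracks keep no depth, and a bin under the limits is not shown to be free of p65.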
